A study of Mus musculus with 10 samples.

Results

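The transcriptome described here is that of T helper 2 (TH2) cells grown from mice on a regular diet, which served as the control arm of a study of dietary vitamin D. The members are the 3 libraries whose treatment label is regular, out of 10 libraries in the series, and the others enter only 1 alternative estimate of the spread between libraries. The cells came from wild-type C57BL/6 mice, second-generation offspring, fed 400 IU of vitamin D3 per kg of diet. Naive CD4+ T cells were isolated, polarized towards TH2 in culture and harvested on day 5, with no further treatment. The polarizing cytokines, the age of the mice and whether a library holds 1 mouse or a pool do not appear in the labels, so p-values below measure only the spread between these libraries, which may be technical. Control replicates 1 and 2 carry the label batch 1 and replicate 3 the label batch 2.

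TH2 cells are the CD4+ helper cells of immunity to worms and of allergic inflammation. The cytokine IL-4, through the signal transducer STAT6, induces the transcription factor GATA3, which opens the locus of the IL-4, IL-13 and IL-5 genes and opposes the TH1 factor T-bet. IL-4 acts on B cells and on the T cells themselves, IL-5 on eosinophils, and IL-13 on epithelium, smooth muscle and macrophages. Freshly activated T cells also switch to fast growth, with glycolysis, amino acid uptake, one-carbon metabolism and lipid synthesis supplying new mass.

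The 3 control libraries held 5800698, 6237478 and 6462146 counts, and 3 counts, the limit that a count of 0 allows, correspond to 0.517, 0.481 and 0.464 CPM in them, a scale on which the counts of every library are brought to the same total. Such limits cover counting error only. Protein-coding genes took 84.9 ± 1.09% of the counts (SD, n = 3) and mitochondrial genes 7.92, 8.23 and 7.02%. The labelled identity was checked first: Cd4, the coreceptor of helper cells, was at 707, 734 and 727 CPM in replicates 1, 2 and 3, Gata3 at 56.9, 65.4 and 63.6, Il13 at 61.4, 89.3 and 92.1, the chemokine receptor gene Ccr4 at 121, 127 and 119 and the costimulatory receptor gene Tnfrsf18 at 679, 665 and 727, so all 5 markers were present in every library. Replicate 3 stood apart in several genes described below, first in markers of other cells: 15 listed B cell markers summed to 21.4 and 17.2 CPM in replicates 1 and 2 and to 136 CPM in replicate 3.

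Of 21811 protein-coding genes, 10430 (47.8%) had at least 1 CPM in each of the 3 libraries and are called expressed below, while 5121 had no count in any of them. Levels of different genes are compared only as CPM per kilobase (kb) of merged exon length, and ranks are among the protein-coding genes on that scale. The expressed genes had a median of 6.55 CPM per kb, with 5523 of them between 1 and 10, 3606 between 10 and 100, 266 between 100 and 1000 and 32 at or above 1000. The 10 genes of highest CPM took 8.26% of all counts, the top 100 took 21.9% and the top 1000 took 48.8%.

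Genes of protein synthesis stood at the top. Among the 100 nuclear genes of highest CPM per kb, 62 code for ribosomal proteins and 7 for histones. All 26 listed cytosolic ribosomal protein genes were expressed, with a median of 833 CPM per kb. Eef1a1, which brings aminoacyl-tRNA to the ribosome, was at 24377, 23082 and 24911 CPM (rank 2), and Eef2, which moves the ribosome along, at 7383, 7607 and 7512 (rank 10). Tmsb4x, which binds free actin, was at 3856, 3886 and 4039 CPM (rank 5), Actb, the cytoskeletal actin, at 2620.03, 2872 and 2908 (rank 31) and Ptprc, the pan-leukocyte phosphatase CD45, at 2916, 2875 and 3180.2 (rank 184). Of these, Eef1a1 shares 39.4% of its 50-base stretches with other annotated transcripts, so its level depends on how reads that fit several genes were counted. The ribosomal protein gene Rplp1, at 2359, 2358 and 2348 CPM and rank 4, shares more than 50% of its stretches.

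**Figure D1:**
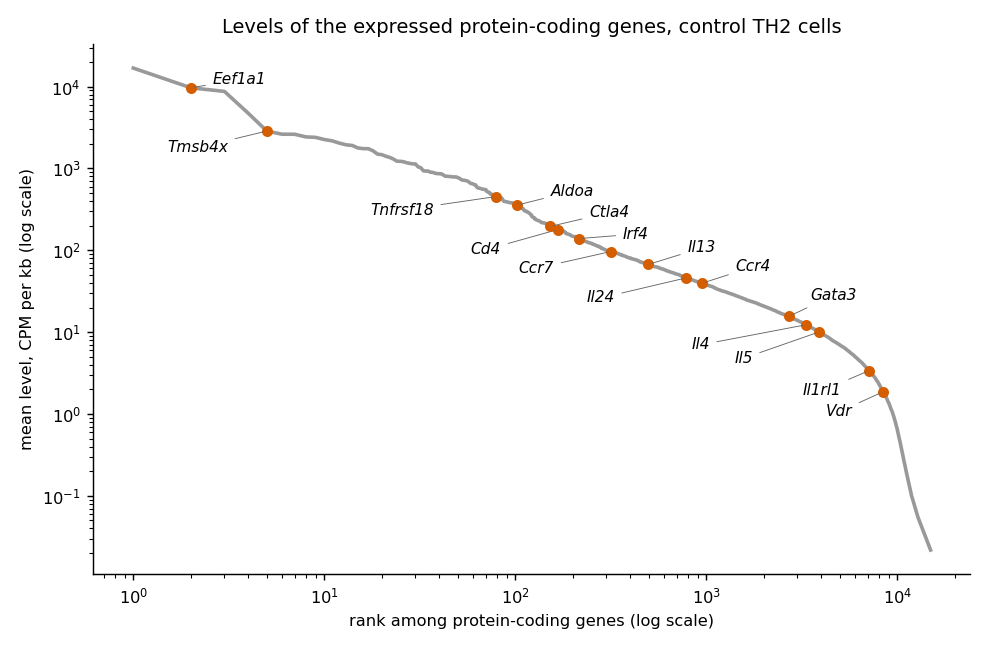
Mean level of each expressed protein-coding gene over the 3 control libraries in CPM per kb (log scale) against its rank (log scale), with 16 genes marked in orange. Tnfrsf18 sits at rank 79 and Cd4 at rank 167, above Il13 at rank 497, while Gata3 at 2703, Il4 at 3334 and Il5 at 3890 lie further down the curve and Vdr lies at 8431.

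The highest protein-coding entry per kb was a predicted gene model. Gm10800, which has no assigned function, was at 15534, 11396 and 6400.2 CPM, rank 1, and Gm10801 was at 1651, 1287 and 735 CPM, rank 8. Both were highest in replicate 1 and lowest in replicate 3, with a coefficient of variation (CV, the SD as a percentage of the mean) of 41.2% for Gm10800 against a median of 6.48% over the 8050 genes with a mean of at least 10 CPM. Gm10800 shares 27.2% of its 50-base stretches with other transcripts.

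The T cell receptor machinery was well represented. Of 22 listed genes of the receptor complex and its coreceptors, 21 were expressed, with a median of 76.5 CPM per kb. The constant segments of the receptor chains led, with Trbc2 at 423 ± 23.02 CPM per kb (SD, n = 3), Trac at 334 ± 2.12 and Trbc1 at 331 ± 7.25. Trbc2 exceeded Trbc1 in all 3 libraries, by 1.22, 1.28 and 1.34-fold, although each shares over 40% of its stretches with other transcripts. Cd2, an adhesion receptor, was at 188 ± 7.01 CPM per kb, Cd4 at 179 ± 3.43, and Ptprc at 163 ± 9.05. Lck, the kinase that starts receptor signalling, was at 155 ± 0.676. The CD3 chains were unequal on this scale, with Cd3d at 157 ± 6.997 CPM per kb, Cd3g at 70.9 ± 2.05 and Cd3e at 13.2 ± 0.8198, and this order held in every library. The member that was not expressed was Cd8a, the coreceptor of cytotoxic cells, at 0, 0.641 and 1.55 CPM.

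Il13 was the foremost type 2 cytokine. Of 13 listed type 2 cytokine genes, 10 were expressed, with a median of 8.97 CPM per kb over the list. Il13 was at 61.4, 89.3 and 92.1 CPM, a mean of 67.1 ± 14.1 CPM per kb and rank 497, with replicate 1 below the other libraries. Il24, a cytokine of the IL-10 family, followed at 66.5, 66.5 and 58.5 CPM, 46.1 ± 3.35 CPM per kb and rank 786. These genes were the only members of the list among the 1000 highest protein-coding genes.

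A group of 5 genes came next at similar levels on merged exons. Il3, a growth factor of mast cells and basophils, was at 7.24, 7.86 and 8.98 CPM and 12.8 ± 1.398 CPM per kb. Il4 was at 14.5, 15.7 and 15.2 CPM and 12.3 ± 0.502 CPM per kb, rank 3334. Il5 was at 12.6, 13.8 and 19.96 CPM and 10.05 ± 2.58 CPM per kb, rank 3890. The anti-inflammatory cytokine gene Il10 was at 9.81 ± 1.44 CPM per kb and Csf2, which encodes GM-CSF, at 8.97 ± 2.22. Neighbours among these 5 differed by less than the larger of their SDs, so the order of neighbours is not resolved. Il3 and Il4 lay above Csf2 by more than its SD. Il5 shares 27.1% of its exon length with a gene on the opposite strand, and the labels do not say whether the counting used strand.

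Il13 exceeded Il4 in all 3 libraries, by 4.32, 5.79 and 6.18-fold per kb, and Il5 by 6.22, 8.26 and 5.88-fold. With the longest transcript in place of the merged exons the mean ratio to Il4 was 2.69 and not 5.45, since the merged exons of Il4 are longer than any single transcript of it. Lower in the list stood Areg, an epidermal growth factor family ligand, at 4.65, 5.29 and 3.71 CPM, the follicular helper cytokine Il21 at 22.2, 21.5 and 12.1 and Il6 at 1.21, 2.73 and 3.87. The remaining members were at the limit of detection, with 1 count in all 3 libraries together for each of Il9, Il25 and Il31.

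The type 2 cytokine locus lies on chromosome 11. The 250 bases before the RefSeq start are shown for 3 of its genes, Il13, Il5 and Il4. The genes share 1 locus, and Il13 stood above Il4 and Il5 in level. The order of Il4 and Il5 was not resolved on merged exons. These are reference sequences on GRCm38.p6, written 5′ to 3′ on each gene's own strand. Il13 is at chr11:53634703-53634952 on the minus strand, Il5 at chr11:53720544-53720793 on the plus strand and Il4 at chr11:53618666-53618915 on the minus strand. Capitals mark matches on either strand to 2 searched motifs, the GATA word, with the letters AGATAA or AGATAG, and the NFAT core, with the letters GGAAAA.
Il13: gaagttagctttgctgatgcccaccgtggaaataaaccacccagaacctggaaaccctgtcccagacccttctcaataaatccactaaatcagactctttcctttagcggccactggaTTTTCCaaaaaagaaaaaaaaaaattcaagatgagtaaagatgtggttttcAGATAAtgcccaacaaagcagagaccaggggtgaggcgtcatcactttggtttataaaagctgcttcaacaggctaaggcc
Il5: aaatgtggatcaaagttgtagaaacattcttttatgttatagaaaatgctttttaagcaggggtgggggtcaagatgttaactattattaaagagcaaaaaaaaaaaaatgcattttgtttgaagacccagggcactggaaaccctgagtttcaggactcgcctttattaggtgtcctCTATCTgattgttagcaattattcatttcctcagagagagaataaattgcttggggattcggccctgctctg
Il4: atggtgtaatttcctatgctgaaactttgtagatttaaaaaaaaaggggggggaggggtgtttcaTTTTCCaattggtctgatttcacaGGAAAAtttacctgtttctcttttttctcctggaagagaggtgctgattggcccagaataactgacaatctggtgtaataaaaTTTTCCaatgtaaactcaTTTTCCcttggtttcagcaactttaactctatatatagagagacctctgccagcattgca
Il13 holds 1 GATA word and 1 NFAT core, with the GATA word beginning 81 bases before the start. Il5 holds 1 GATA word, 72 bases before the start, and 0 NFAT cores. Il4 holds 0 GATA words and 4 NFAT cores. Of 16869 protein-coding genes with such a sequence, 14.9% hold a GATA word and 20.2% an NFAT core in the same window. A match is a description of letters and not a bound site.

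**Figure D2:**
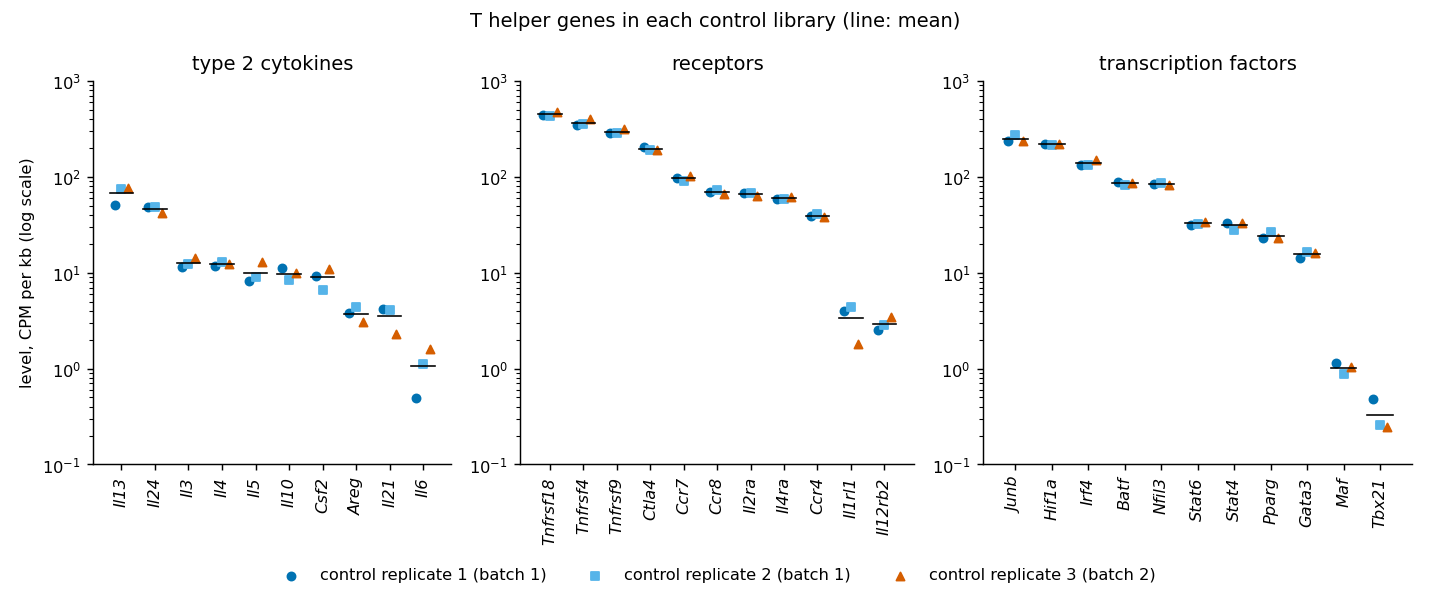
Level in CPM per kb (log scale) of cytokine, receptor and transcription factor genes in each control library, with circles for replicate 1, squares for replicate 2, triangles for replicate 3 and a line at the mean. Most genes lie within the width of their symbols. Those that spread further include Il13, lower in replicate 1, Il21 and Il1rl1, lower in replicate 3, and Il6, Il5, Csf2 and Tbx21.

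Cytokine genes of other helper programmes were led by ligands of the tumour necrosis factor (TNF) family. Of 30 listed genes 20 were expressed, with a median of 4.85 CPM per kb. Mif, a macrophage migration inhibitory cytokine made by many cells, was highest at 192 ± 8.91 CPM per kb, but it shares 34.1% of its stretches with other transcripts. Tnfsf8, the CD30 ligand, was at 313, 311 and 346 CPM and 84.9 ± 5.24 CPM per kb. Tnfsf14, which encodes LIGHT, was at 50.6 ± 3.16 CPM per kb, Tnfsf11, the RANK ligand, at 40.4 ± 4.22, Tnf itself at 27.3 ± 4.31 and Fasl, the death ligand, at 23.96 ± 3.38. All of these per-length levels exceeded that of Il4 on merged exons, 12.3 CPM per kb. With its longest transcript Il4 was at 24.99 CPM per kb, and levels of Tnf and Fasl on that length are not given here.

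Signature cytokines of the other subsets were low. Ifng, the TH1 cytokine, was at 3.62, 2.24 and 7.58 CPM, highest in replicate 3, and Il4 exceeded it in all 3 libraries, by 4.22, 7.39 and 2.11-fold per kb. Il12b and Il1b had 0 counts, which allows up to 0.162 CPM over the 3 libraries together. Chosen after their values were seen, Il17a had 1 count and Il17f and Il22 had 4 counts each over the 3 libraries, while Il2, the growth factor of activated T cells, was at 12.1, 8.98 and 12.4 CPM.

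Chemokine genes were nearly silent as ligands. Of 17 listed ligand genes only Cklf, a chemokine-like factor, was expressed, at 20.2, 23.2 and 19.96 CPM, and Ccl2, Ccl24 and Ccl27a had 0 counts. Ccl22, which draws CCR4+ cells, was at 1.21, 0.802 and 13.9 CPM, and thus near the limit in replicates 1 and 2 and above it in replicate 3. The other top members of the list, Xcl1, Ccl4, Ccl5, Ccl3 and Ccl17, had 7, 6, 5, 4 and 2 counts over the 3 libraries.

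Among cytokine receptors, those of IL-2 and IL-4 led. Of 40 listed genes 33 were expressed, with a median of 5.64 CPM per kb. Il2ra, the high-affinity IL-2 receptor chain induced by activation, was at 385, 387 and 362 CPM and 66.2 ± 2.43 CPM per kb (rank 505). Il4ra, the IL-4 receptor chain, was at 357, 351 and 369.8 CPM and 59.8 ± 1.61 CPM per kb (rank 578), and Il2rb, the signalling chain of the IL-2 receptor, at 46.3 ± 1.75. Il7r, the receptor of the survival cytokine IL-7, followed at 33.2 ± 1.295 CPM per kb, Il21r at 31.6 ± 1.46, the interferon receptor chain Ifnar1 at 31.2 ± 0.889 and the shared chain Il2rg at 27.02 ± 0.876.

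The receptor for the TH1-inducing cytokine IL-12 was far lower in its inducible chain. Il12rb2 was at 9.48, 10.7 and 13.2 CPM, and Il4ra exceeded it in all 3 libraries, by 23.8, 20.7 and 17.8-fold per kb, although Il12rb2 shares 40.04% of its exon length with a gene on the opposite strand. Il13ra1, the IL-13 receptor chain of non-lymphoid cells, had 0 counts. Il1rl1 encodes ST2, the receptor of the epithelial alarmin IL-33, and was at 27.4, 30.3 and 12.5 CPM, lowest in replicate 3 (CV 40.7%). The receptors of the other epithelial alarmins, chosen after their values were seen, were Crlf2, part of the TSLP receptor, at 14.8, 19.2 and 16.1 CPM and Il17rb, part of the IL-25 receptor, at 3 counts in all.

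Homing receptors combined a lymph node receptor with TH2-associated ones. Of 25 listed chemokine and lipid mediator receptors 13 were expressed. Ccr7, which guides cells to lymph nodes, was highest at 194, 178 and 201 CPM and 96.6 ± 6.09 CPM per kb (rank 316). Ccr8, a receptor of TH2 and regulatory T cells, was at 81.7, 84.8 and 77.2 CPM and 69.1 ± 3.25 CPM per kb (rank 478), and Ccr4, a receptor of TH2 and skin-homing cells, at 121, 127 and 119 CPM and 39.5 ± 1.38 CPM per kb (rank 947). The 3 levels were separated by more than their SDs.

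Ptger2, a prostaglandin E2 receptor, was at 22.8 ± 2.24 CPM per kb, Gpr183, an oxysterol receptor that positions lymphocytes, at 13.2 ± 3.52, and Cxcr4 at 8.94 ± 0.757. Cxcr3, the receptor of TH1 cells, had 4 counts over the 3 libraries against 2263 for Ccr4. Ccr3, the eotaxin receptor, Ccr6, Ccr10 and the histamine receptor gene Hrh4 had 0 counts. Ptgdr2, which encodes the prostaglandin D2 receptor CRTH2 and was looked at after its value was seen, had 1 count.

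Tnfrsf18, Tnfrsf4 and Tnfrsf9, costimulatory receptors of the TNF receptor family, were among the highest genes of the cells. Another member of that family, Cd27, was at 12.4, 11.9 and 13.5 CPM. Of 23 listed costimulatory and checkpoint genes 21 were expressed, 10 lay among the top 1000 and 2 among the top 100, with a list median of 20.3 CPM per kb. Tnfrsf18, which encodes GITR, was at 679, 665 and 727 CPM, 453 ± 21.2 CPM per kb and rank 79. Tnfrsf4, which encodes OX40, was at 475, 483 and 543 CPM, 366 ± 27.2 CPM per kb and rank 98. Tnfrsf9, which encodes 4-1BB, was at 772, 775 and 858 CPM, 295 ± 17.9 CPM per kb and rank 115. All 3 were highest in replicate 3. Tnfrsf18 shares 27.2% of its exon length with a gene on the opposite strand.

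The checkpoint receptor Ctla4 stood at 482, 443 and 442 CPM and 196 ± 9.89 CPM per kb, rank 152. It exceeded Cd28, the activating receptor for the same B7 ligands, in all 3 libraries, by 2.27, 2.36 and 2.36-fold per kb. Icos, the inducible costimulator, was at 124 ± 10.5 CPM per kb, the inhibitory receptor gene Btla at 62.02 ± 1.84, Cd200 at 46.04 ± 0.524 and Lag3, an inhibitory receptor for MHC class II, at 42.4 ± 3.48.

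All 26 listed TH2 transcription factor genes were expressed, with a median of 21.8 CPM per kb, and the AP-1 and IRF partners stood above GATA3. Junb, an AP-1 subunit that promotes IL-4 expression, was at 545, 634 and 539 CPM and 249 ± 23.1 CPM per kb (rank 126). Irf4 was at 651, 657 and 736 CPM and 139 ± 9.69 CPM per kb (rank 215), and its partner Batf at 123, 117 and 122 CPM and 85.95 ± 2.49 (rank 368). Nfil3, a basic leucine zipper factor, was at 84.8 ± 1.51 CPM per kb (rank 376).

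The signal transducers came next. Stat5b, which carries IL-2 signals, was at 76.97 ± 0.872 CPM per kb and exceeded its neighbour Stat5a in all 3 libraries, by 2.37, 2.33 and 2.29-fold. Stat6, the transducer of IL-4, was at 139.8, 142 and 149.9 CPM and 32.7 ± 1.22 CPM per kb. Stat4, the transducer of IL-12, was at 127, 108 and 127 CPM and 31.2 ± 2.81 CPM per kb, so the ratio of Stat6 to Stat4 was 0.968, 1.15 and 1.04 and the order did not hold in every library. Stat4 shares 21.7% of its stretches with other transcripts.

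Gata3, the lineage factor, was at 56.9, 65.4 and 63.6 CPM, 15.6 ± 1.13 CPM per kb and rank 2703, lowest in replicate 1. Pparg, a nuclear receptor linked to TH2 function, was at 24.2 ± 2.301 CPM per kb, Bhlhe40 at 37.6 ± 2.41, the growth factor independence gene Gfi1 at 19.5 ± 3.21 and Rbpj, the effector of Notch signals, at 16.5 ± 0.745. The chromatin organizer Satb1 was at 533, 533 and 532 CPM and 28.01 CPM per kb, with a CV of 0.131%. Ikzf1 exceeded its family member Ikzf3 by 9.86, 11.2 and 9.56-fold. At the low end were Maf, an activator of Il4, at 1.02 ± 0.138 CPM per kb, Nfatc2 at 1.64 ± 0.118, Nfatc1 at 2.26 ± 0.2204 and Bhlhe41 at 0.614 ± 0.135.

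Lineage factors of other subsets were low or at the limit. Tbx21, which encodes T-bet, was at 1.21, 0.641 and 0.619 CPM, and Gata3 exceeded it by 29.5, 63.8 and 64.3-fold per kb. Foxp3, the regulatory T cell factor, had 1 count over the 3 libraries against 1149 for Gata3. Bcl6, the follicular helper factor, was at 3.45, 4.01 and 4.18 CPM, Eomes at 2.24, 2.08 and 4.95, highest in replicate 3, and Prdm1, which encodes Blimp-1, had 6 counts.

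Of the 40 genes in that list 34 were expressed, because it also holds factors that many activated T cells share. Hif1a, the oxygen-sensing factor that drives glycolytic genes, was at 1308, 1275 and 1285 CPM and 219 ± 2.89 CPM per kb (rank 137), close behind Junb at rank 126. Nfkb1 followed at 43.6 ± 2.44 CPM per kb, Id2 at 41.9 ± 2.58 and Nfkb2 at 29.5 ± 2.42. Zbtb7b, which fixes the CD4 lineage, was at 18.5 ± 0.4199 CPM per kb, Stat3 at 16.4 ± 0.258 and Myc, the driver of growth, at 9.62 ± 0.361 CPM per kb. The memory and naive cell factors Tcf7, Lef1 and Klf2 were at 4.21 ± 0.364, 6.48 ± 0.209 and 2.79 ± 0.406 CPM per kb.

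Of the metabolic programmes, oxidative phosphorylation stood highest per gene. All 29 listed nuclear genes of the respiratory chain were expressed, with a median of 73.1 CPM per kb against 6.55 over all expressed genes, and 22 of them lay among the top 1000. Cox8a, a subunit of cytochrome c oxidase, was at 381 ± 9.29 CPM per kb (rank 95). The ATP synthase subunit genes Atp5b, Atp5a1 and Atp5c1 were at 310.1 ± 2.51, 277 ± 5.796 and 259 ± 12.03. All 25 citrate cycle genes were expressed too, with a median of 29.6 CPM per kb, led by malate dehydrogenase Mdh1 at 111 ± 6.69 and Sdhd at 101 ± 2.87. Idh2, the mitochondrial isocitrate dehydrogenase, exceeded the cytosolic Idh1 by 5.64, 4.85 and 5.299-fold. Small subunits have short transcripts, so on the CPM scale the same programme had a median of 121 CPM against 105 for the citrate cycle.

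**Figure D3:**
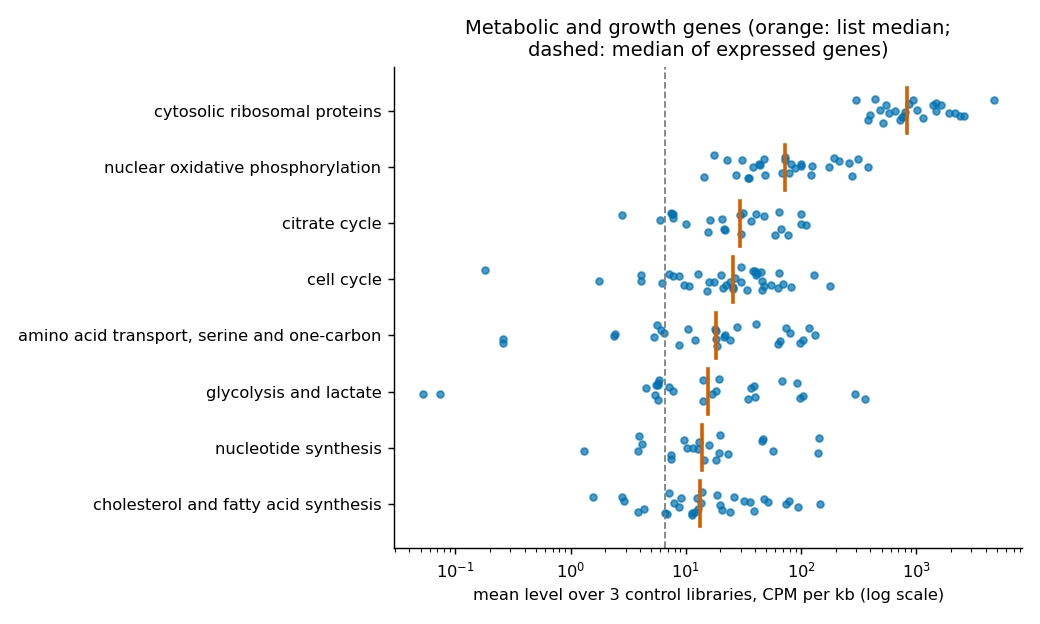
Mean level of each member of 8 lists over the 3 control libraries in CPM per kb (log scale), with an orange bar at the list median over all members and a dashed line at 6.55, the median of the expressed genes (members with 0 counts are not drawn). All 8 medians lie to the right of the dashed line, from 13.2 for cholesterol and fatty acid synthesis to 833 for ribosomal proteins.

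Of the 13 protein genes of the mitochondrial genome only 7 were expressed, and their levels were very unequal. The cytochrome oxidase gene mt-Co1 was at 13920.2, 12732 and 13809 CPM and mt-Nd1 at 729, 634 and 658, whereas mt-Co2 had 9 counts in all and mt-Nd3 and mt-Nd4l had 0. The low members share more than 95% of their 50-base stretches with other annotated transcripts, 97.99% in mt-Nd3 and 98.8% in mt-Nd4l, and mt-Co1 shares 51.1%. Their counts are therefore uncertain as levels.

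Glycolytic genes spanned a wide range, with a few enzymes far above the others. Of 26 listed genes 24 were expressed, with a median of 15.6 CPM per kb and 8 among the top 1000. Aldolase Aldoa was at 1015, 1025 and 1072 CPM and 356 ± 10.4 CPM per kb (rank 102), and exceeded its family member Aldoc by 24.01, 21.1 and 18.4-fold. Phosphoglycerate kinase Pgk1 was at 292 ± 8.99 CPM per kb, pyruvate kinase Pkm at 103 ± 3.21, triosephosphate isomerase Tpi1 at 98.4 ± 9.75, Gapdh at 92.7 ± 0.557 and the lactate dehydrogenase gene Ldha at 68.00 ± 3.37. Pgk1 shares 53.9% of its stretches with other transcripts, Pkm 25.8% and Gapdh 24.7%.

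The order of isoenzymes held in every library for the pairs compared here. Ldha exceeded Ldhb by 1.99, 1.88 and 2.05-fold, the phosphofructokinase gene Pfkp was higher than Pfkl, with a Pfkl to Pfkp ratio of 0.1101, 0.151 and 0.174, and the enolase Eno1 exceeded Eno3 by 2.26, 1.76 and 2.06-fold. Hk2, the hexokinase that activation induces, exceeded the housekeeping Hk1 by 2.19, 2.49 and 2.65-fold, and by 1.33-fold on the mean with the longest transcripts. Of the glucose transporters Slc2a1 was below Slc2a3, with a ratio of 0.533, 0.707 and 0.881, and both were under the list median at 5.49 ± 1.22 and 7.81 ± 0.268 CPM per kb. Lactate export genes were in the order Slc16a1 over Slc16a3, by 3.004, 3.24 and 3.94-fold. Pklr, the liver pyruvate kinase, had 3 counts against 9534 for Pkm.

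Among serine, one-carbon and amino acid genes, asparagine synthetase stood highest on merged exons. Both mitochondrial folate enzymes compared exceeded their cytosolic counterparts. Of 29 listed genes 27 were expressed, with a median of 18.5 CPM per kb. Asns, asparagine synthetase, was at 368, 326 and 391 CPM and 132 ± 12.02 CPM per kb, and the serine synthesis genes Psat1 and Phgdh at 103 ± 4.86 and 65.5 ± 2.81. Mthfd2, the mitochondrial folate enzyme of dividing cells, was at 118 ± 8.88 CPM per kb and exceeded the cytosolic Mthfd1 by 12.4, 11.2 and 10.4-fold. With the longest transcripts Mthfd2 stood above Asns, at 197 against 180 CPM per kb. Shmt2, the mitochondrial serine hydroxymethyltransferase, exceeded cytosolic Shmt1 by 21.00, 16.3 and 13.9-fold. Glutamate dehydrogenase Glud1 was at 98.6 ± 1.91 CPM per kb, the amino acid carrier chain Slc3a2 at 80.7 ± 1.49 and ornithine decarboxylase Odc1 at 73.5 ± 0.949. Arg1, the arginase of alternatively activated macrophages, had 0 counts.

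All 22 nucleotide synthesis genes were expressed, with a median of 13.7 CPM per kb. Impdh2, the rate-limiting enzyme of guanine nucleotide synthesis, was at 449.8, 413 and 471 CPM and 145 ± 9.51 CPM per kb, and exceeded Impdh1 by 22.9, 18.8 and 17.8-fold. Paics, of purine synthesis, was at 139 ± 3.595 CPM per kb and the pentose phosphate enzyme Tkt at 56.8 ± 0.9698. Prps1, which makes the ribose donor, exceeded Prps2 by 3.01, 2.85 and 2.89-fold. Impdh2 shares 39.3% of its stretches with other transcripts.

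All 32 cholesterol and fatty acid synthesis genes were expressed as well, with a median of 13.2 CPM per kb. Scd2, a desaturase that makes monounsaturated fatty acids, was at 798, 781 and 828 CPM and 147 ± 4.31 CPM per kb (rank 205), and exceeded Scd1 by 6.27, 5.72 and 6.195-fold. In the mevalonate pathway Hmgcs1 was at 94.7 ± 3.93 CPM per kb and Cyp51 at 79.4 ± 4.44. The citrate lyase gene Acly was at 51.2 ± 2.45 and Insig1, which restrains the pathway, at 47.6 ± 1.63.

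Genes of DNA replication and of mitosis were both well expressed. Of 40 listed cell cycle genes 38 were expressed, with a median of 25.6 CPM per kb. Topoisomerase Top2a was at 1686, 1562 and 1619 CPM and 179.99 ± 6.84 CPM per kb (rank 166), and the proliferation marker Mki67 at 1313, 1267 and 1337 CPM and 129.8 ± 3.54. The mitotic cyclin genes Ccnb2 and Ccna2 were at 81.7 ± 4.79 and 70.4 ± 0.851 CPM per kb, and the replication genes Pcna and Mcm6 at 63.9 ± 2.44 and 62.9 ± 1.72. Ccnd1 had 0 counts, whereas Ccnd2 was at 212, 230.4 and 236 CPM and Ccnd3 at 138, 135 and 127. Ccnd2 exceeded Ccnd3 by 1.44, 1.59 and 1.74-fold per kb of merged exons, and by 1.04-fold on the mean with the longest transcripts. Cdk6 was below Cdk4, with a ratio of 0.243, 0.228 and 0.246.

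Adhesion and migration genes included some of the highest of the culture. Of 26 listed genes 24 were expressed. Lgals1, which encodes galectin-1, was at 833, 809 and 781 CPM and 894 ± 28.8 CPM per kb (rank 37), the tetraspanin gene Cd53 at 733 ± 25.7, S100a10 at 322 ± 12.7, the actin-binding coronin gene Coro1a at 177 ± 12.00 and vimentin, Vim, at 118 ± 6.21. The integrin chain Itgb2 was at 61.5 ± 3.42 CPM per kb and annexin Anxa6 at 105 ± 6.66.

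The vitamin D pathway, the subject of the wider study, was present at the level of its receptor and cofactors and not of its enzymes. Of 16 listed genes 10 were expressed. Vdr, the nuclear receptor of calcitriol, was at 9.83, 11.1 and 10.8 CPM, 1.87 ± 0.116 CPM per kb and rank 8431, below the median of the expressed genes. Its partners Rxrb and Rxra were at 11.1 ± 0.706 and 6.397 ± 1.27 CPM per kb, and Rxrg had 0 counts. The corepressor Ncor1 was at 26.1 ± 0.779 CPM per kb and the coactivators Ncoa3, Ncoa2 and Med1 at 23.2 ± 1.397, 8.85 ± 0.533 and 6.25 ± 0.0554. Cyp27b1, which makes the active hormone, and Cyp2r1, which prepares its precursor, had 6 and 6 counts over the 3 libraries. Cyp24a1, which degrades the hormone and is a direct target of the receptor, and Gc, the carrier protein of plasma, had 0 counts.

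The libraries were alike in their levels. Over the 10430 expressed genes Pearson's r of log2 CPM was 0.991 between replicates 1 and 2, 0.989 between 1 and 3 and 0.990 between 2 and 3, as a description across genes of 1 kind of library. Within 1.5-fold lay 94.5, 93.6 and 95.2% of the genes in these pairs, and 90, 122 and 95 genes differed by more than 2-fold. Of the 100 highest genes 97, 98 and 96 were shared. The median CV of 6.48% (quartiles 3.88 and 10.2%) was taken over the 8050 genes at or above a mean of 10 CPM, of which 246 had a CV above 20%. The common biological coefficient of variation, the spread beyond counting error, was 5.45% in edgeR.

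From a mean of 3 CPM up, the spread of expressed genes was above what counting error alone gives. For genes with a mean from 1 to under 3 CPM the median CV was 23.1%, and counting alone gives 22.9%. Expressed genes have at least 1 CPM in every library, which cuts the spread in this bin, so that match is not read. From 3 to under 10 CPM the median CV was 17.05% against 13.6% from counting. From 30 to under 100 CPM it was 6.15% against 4.67%, and at or above 1000 CPM 3.51% against 0.830%. The genes of smallest CV, such as Slc4a1ap (0.0391%), Rest (0.0768%) and Rap1b (0.176%), lay below what counting alone gives at their level.

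**Figure D4:**
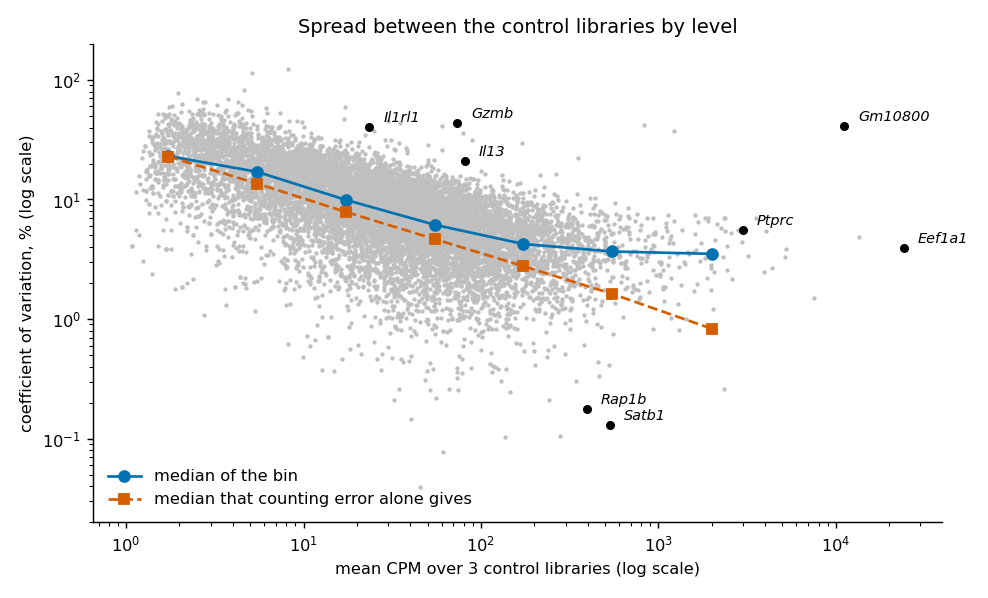
CV over the 3 control libraries (log scale) against mean CPM (log scale) for each expressed gene in grey, with the median by level in blue and the median that counting error alone gives in dashed orange. The lines start together near 23%, where the rule of at least 1 CPM in every library cuts the spread. They part with level, and Gm10800, Gzmb and Il1rl1 sit far above the median.

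A chi-square test of homogeneity asked which genes differed between the 3 libraries beyond counting error. Of 12621 genes 693 (5.49%) passed, with p adjusted by the method of Benjamini and Hochberg and a threshold of 0.05. Between replicates 1 and 2 alone 239 genes passed, between 2 and 3 alone 360 and between 1 and 3 alone 479. Of the type 2 cytokines 3 of 10 tested passed, namely Il13, Il5 and Il21. Of the TH2 transcription factors 3 of 26 passed, namely Irf4, Junb and Gfi1, and Gata3, Batf and Stat6 did not. Irf4 had far more counts than Gata3 and a similar SD relative to its mean, so passing does not rank the spread of these genes. Of the 15 B cell markers 8 reached the expected count with replicate 3 and 4 without it, so a count of those that passed says nothing about the list. Of the ribosomal proteins 20 of 26 passed, with 18 without replicate 1, 14 without replicate 2 and 9 without replicate 3. Their median level was 1978 CPM, and at high counts the test passes smaller differences, so their share is not set against 5.49%. The median of their CVs was 3.33%, against 3.51% over all expressed genes at or above 1000 CPM.

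Most transcripts of other cells were low, though the granzymes given below were not, and several markers were highest in replicate 3. The 10 neutrophil markers summed to 0.172, 0.321 and 0.309 CPM, with S100a8, Ly6g, Camp, Ltf, Elane, Retnlg and Csf3r at 0. The 9 erythroid markers summed to 1.38, 1.92 and 1.39 CPM, but their 4 globin genes, all at 0, are transcripts that the library kit removes. The 14 macrophage markers summed to 16.7, 19.1 and 16.9 CPM, of which the lysosomal gene Cd68 gave 14.7, 13.8 and 13.2. Stromal markers summed to 38.6, 39.4 and 41.8 CPM, with Pdgfra at 0 and most from Pecam1 at 28.1, 28.7 and 33.6. Mast cell and basophil markers summed to 32.1, 31.7 and 25.1 CPM, led by the chymase gene Cma1 and histidine decarboxylase, Hdc. Innate lymphoid and NK markers summed to 55.9, 61.6 and 61.7 CPM, nearly all of it from Cd3e, which T cells express. Of the 14 dendritic cell markers 9 were expressed, summing to 555, 561 and 591 CPM, but Cst3 and Ccr7, which other cells use too, gave most of it, and Xcr1 had 1 count. Members higher in replicate 3 included H2-Aa at 1.72, 1.76 and 11.9 CPM, H2-Eb1 at 2.07, 2.73 and 8.98 and Flt3 at 0, 0 and 2.17. Xcr1 and Clec9a had 1 count each, in replicate 3. The class II genes among them are also expressed by B cells.

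B cell markers together were highest in replicate 3, at a sum of 136 CPM against 21.4 and 17.2 in replicates 1 and 2. Ms4a1, which encodes CD20, was at 0.6896, 0.962 and 27.7 CPM, Cd79b at 2.07, 2.57 and 19.96, Fcer2a, the low-affinity IgE receptor, at 1.38, 0.641 and 22.3 and Ighm, the heavy chain of IgM, at 12.4, 7.86 and 37.9. Cytotoxic and CD8 markers summed to 153, 153 and 259.7 CPM, with granzyme B, Gzmb, at 57.2, 52.9 and 110.5 CPM, granzyme A, Gzma, at 29.1, 23.7 and 52.3 and Cd8b1 at 7.59, 7.05 and 14.9. On the mean Gzmb was at 51.2 CPM per kb (rank 698), above Il24 (rank 786) and Ccr4 (rank 947), and Gzma at 34.8 (rank 1103). With the longest transcripts Gzmb was at rank 1021, below Il24 at 951. In bulk RNA, more cells of a type and more RNA per cell cannot be told apart.

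**Figure D5:**
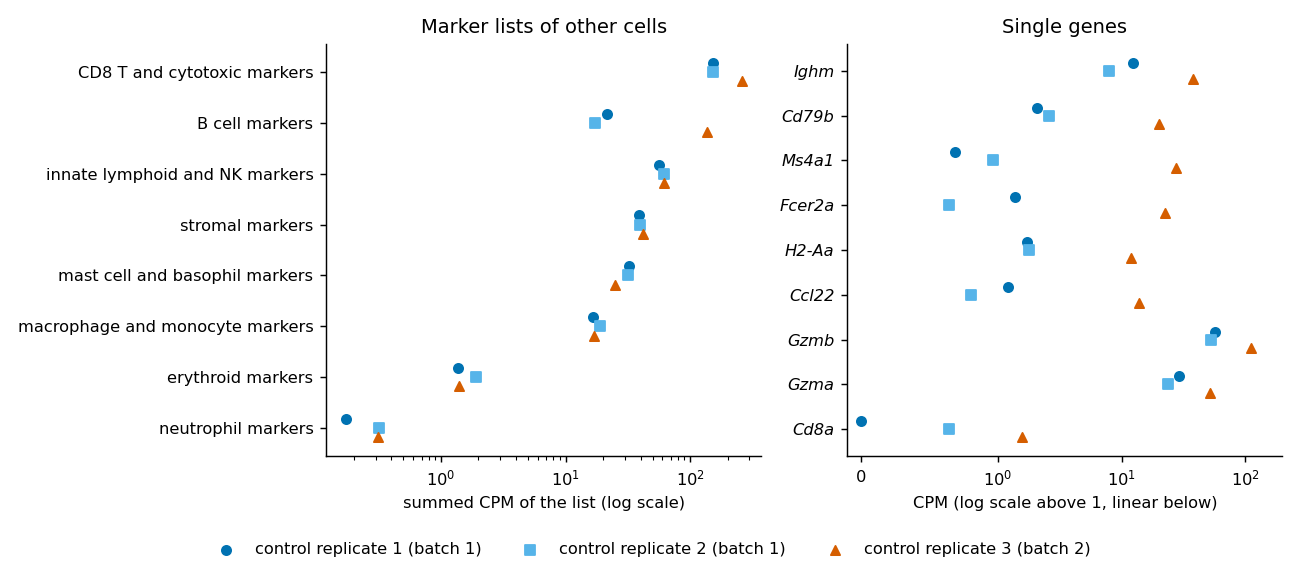
Left, summed CPM of the marker lists of other cells in each control library (log scale); right, CPM of single genes (log scale above 1, linear below), with circles for replicate 1, squares for replicate 2 and triangles for replicate 3. Replicate 3 lies apart for the B cell list at 136 CPM and the cytotoxic list at 259.7 CPM, while the other lists drawn differ less between replicate 3 and the rest.

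Batch 2 holds 1 control library, so batch and library cannot be told apart. edgeR's quasi-likelihood test, with the lone library assumed to vary like the others, called 59 of 12011 genes (0.491%) between it and the 2 libraries of batch 1, of which 32 (0.266%) were higher in replicate 3 and 27 (0.225%) lower, at a Benjamini-Hochberg adjusted p below 0.05. DESeq2 called 16, with 10 higher and 6 lower, and all 16 were among the 59. When the spread was taken from all 10 libraries in 4 groups of diet and batch, edgeR called 0, with 401 genes at an unadjusted p below 0.05.

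Genes higher in replicate 3 were led by Ms4a1 and Fcer2a. Of the 15 B cell markers 8 were tested, and the filter on low counts admits a gene through the lone library, so no count over the list is read. The log2 differences of replicate 3 over batch 1 were 4.99 ± 0.34 (SE) for Ms4a1 and 1.87 ± 0.19 for Ighm. For the MHC class II gene H2-Aa the difference was 2.72 ± 0.38 and for Gzmb 0.97 ± 0.11. Ms4a1, Fcer2a, Ccl22, Mef2c and Mzb1 passed the filter through replicate 3 alone, so their calls are no support beyond the values themselves. The SEs and the edgeR calls take the spread of the lone library from replicates 1 and 2, and with the spread of all 10 libraries none of the calls remained. Ccl22 was called as well, at 3.74 ± 0.41, as were Mef2c (0.345, 0.641 and 10.4 CPM) and Mzb1 (0.6896, 0.321 and 8.51 CPM), both of which B cells express. DESeq2 called all of these but H2-Aa. The part of admixed cells in these differences was not tested.

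Genes lower in replicate 3 included many predicted models, with Gm21738, Gm10801, Gm10800 and Gm10715 first by adjusted p. DESeq2 also called Gm10715 but not the others named. Gm10800 differed by -1.11 ± 0.12 on the log2 scale. Among cytokine and receptor genes Il1rl1 was lower, by a log2 difference of -1.24 ± 0.20, as was Il21 (-0.89 ± 0.21), and edgeR called both. DESeq2 called neither, and these calls too were lost with the spread of all 10 libraries. Of 309 tested members of the metabolic, ribosomal, cell cycle, adhesion and transcription factor lists, edgeR called 0, with 22 at an unadjusted p below 0.05, and DESeq2 called 0. Over all 12011 genes 59 were called and 708 had an unadjusted p below 0.05, so both counts are near the background. Il13 differed by 0.25 ± 0.11, adjusted p = 0.72 in edgeR, which missed the threshold.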

How the data were processed

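The submitters' processing notes name STAR 2.7.10a, HTSeq 0.13.5 and the build GRCm38. The authors deposited 1 table of raw counts per Ensembl gene, from stranded total RNA libraries made with a globin-depleting kit, per the labels' protocols. The annotation release and the strand setting are not stated there.

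The 3 control columns were taken by title. Of 49671 gene IDs, 49412 matched GENCODE M21, and the others held 0.0281% of the control counts. Levels are CPM on column totals, and per kb of merged exons between genes. Overlap with other genes was measured as the share of 50-base stretches found in another annotated transcript and the share of exon length under a gene on the opposite strand.

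Homogeneity of counts was tested by chi-square with 2 degrees of freedom for genes with an expected count of at least 5. The batches were compared in edgeR 4.0.16 (R 4.3.3, TMM, filterByExpr with a minimum count of 10, glmQLFit robust, glmQLFTest), and DESeq2 1.42.0 was an alternative. Scripts were tested on simulated data. Python 3.11.15 with scipy 1.17.1 was used for the rest.

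The members and the 29 gene lists were chosen with earlier results of these data known. Genes were named by rule: the 20 nuclear protein-coding genes of highest CPM and 15 of highest CPM per kb, up to 8 members of each list by CPM per kb and those at 0, all members of 4 helper and vitamin D lists, the isoenzyme and lineage pairs, the 10 largest and smallest CVs, and up to 10 genes per direction between batches. Some genes that the rule names are not reported here. Promoter sequences are from RefSeq (GRCm38.p6), which matched 16869 of 21811 protein-coding genes (77.3%), so promoters were not compared between classes of genes.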

Additional observations from a re-analysis of the deposited data

How the results depend on the processing

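Under the alternatives tried, the counts of expressed genes stayed between 8911 and 10880, against 10430, and the counts of genes differing between libraries or batches stayed within 1.5 times, with these exceptions. Between batches, DESeq2 called 16 genes, and edgeR with the spread of all 10 libraries called 0 (401 at an unadjusted p below 0.05), also without control replicate 1 (0, with 384 at an unadjusted p below 0.05) and without control replicate 2 (0, with 451). The cause of these differences was not tested. A filter over the 3 libraries as 1 group, chosen after seeing the data, does not admit a gene through replicate 3 alone. It lowered the number of calls, and only among the genes higher in replicate 3. Without replicate 3 there is no batch 2 control library and no contrast. At a threshold of 0.01, 368 genes differed beyond counting error, and leaving out 1 library gave 239 to 479. The common biological coefficient of variation ran from 4.96 to 5.99% without 1 library. The median level of expressed genes was 8.98 CPM per kb with the longest transcripts and 7.72 on totals of protein-coding genes, against 6.55. The log2 ratio of Stat6 to Stat4 was 0.07 and turned to -0.089 with the longest transcripts. Of 28 gene pairs this was the one reversal, and 17 others moved by more than 1 SD with the longest transcripts. Of 48 gene levels, 31 moved so with the longest transcripts, 40 with totals of protein-coding genes and 0 with TMM. Leaving out 1 of 3 libraries cannot move a mean by 1 SD, so it says nothing here. No paired analysis was possible because replicate numbers follow accession order and the batches compared are libraries of 1 group. A count of 0 in 1 library allows 0.464 to 0.517 CPM.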

Other observations

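Genes and RNAs outside the lists, chosen after their values were seen, are given here as values. Jak2, a kinase that carries signals of several cytokine receptors, was at 1886, 1770.3 and 1855 CPM. Its 365 ± 11.9 CPM per kb (SD, n = 3) lay above that of Il2ra, the highest of the listed cytokine receptor genes at 66.2 ± 2.43. Ly6a, an antigen of activated mouse T cells in C57BL/6, was at 1.21, 0.641 and 1.08 CPM. B2m, the light chain of MHC class I, was at 591, 581 and 662 CPM, highest in replicate 3. H2-Ea-ps, a class II pseudogene, was at 0 and 0.160 CPM in replicates 1 and 2 and at 3.09 in replicate 3, where the B cell markers were also highest.

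Among noncoding RNAs, Gm26917 was at 25205, 29152 and 23891 CPM and the small nuclear RNA Rn7sk, which holds back transcription elongation, at 16425, 16263 and 16552. Malat1, a nuclear RNA of most mammalian cells, was at 4646, 4364 and 4306 CPM.

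No single variable segment of the T cell receptor beta chain prevailed. In replicates 1, 2 and 3 the Trbv genes held 1200, 1261 and 1296 counts. Trbv20 took 12.5 ± 1.17% of them (SD, n = 3), Trbv19 12.5 ± 0.417% and Trbv13-1 12.4 ± 2.27%, and no segment took more than 14.3% in any library.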
